A study of Homo sapiens with 6 samples.

Results

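The genes described here are 44 genes of the actomyosin cytoskeleton and of the SRF-MRTF axis: actins, non-muscle myosin II heavy and light chains, tropomyosins, calponins and transgelins, crosslinkers, membrane linkers, actin turnover proteins, and the kinases, formins and transcription factor that act on them. They were chosen by symbol, and each symbol matched 1 Ensembl gene ID, so they were 44 of the 40396 genes in the table. The cells were H1, an established human embryonic stem cell line, on day 3 of differentiation to definitive endoderm (DE) on Matrigel. Both groups received 50 ng/ml activin A throughout, and for the first 24 h also 2.5 µM CHIR99021, which activates Wnt signaling. The SAR group (3 libraries) also had 0.5 µM saracatinib (SAR), an inhibitor of Src family kinases, on all 3 days. The control group (3 libraries) had no SAR. The paper names the solvent DMSO for control cells of its western blots, and does not name it for these libraries. The labels do not say whether the 3 libraries of a group came from separate cultures, so the p-values measure only the spread between these libraries, which may be technical.

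Actin filaments are built from actin monomers, made contractile by non-muscle myosin II, and held together by crosslinking and bundling proteins. The kinases ROCK1 and ROCK2 raise phosphorylation of the myosin light chain and activate LIM kinase, and the diaphanous formins nucleate and lengthen filaments. The transcription factor SRF is tied to the same machinery: its cofactors MRTF-A and MRTF-B bind actin monomers and are released to the nucleus when monomers are used up, where SRF then drives genes for actins, their crosslinkers and SRF itself through a sequence named the CArG box.

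The values are FPKM, fragments scaled by gene length and by all fragments of the library, and therefore levels per length. Read counts recovered from the FPKM gave totals of 18877964 to 24419937 reads in control and 16681280 to 18389543 with SAR. Every SAR library thus had fewer reads than every control library. The reads given for a gene below bear on counting error only. The 16371 genes that averaged 0.5 FPKM or more were tested with limma, on a scale of log2(FPKM + 0.1) and with Benjamini-Hochberg adjustment over all of them, and a gene was called at an adjusted p-value under 0.05. A log2 fold change is SAR minus control on that scale, which makes the change of low genes smaller than the ratio of their means. Over all tested genes the median log2 fold change was 0.12 as deposited and 0.0011 when the libraries were brought to a common scale by median ratios (median-ratio rescaling), so that each member is read against that shift. All of 12 DE markers were above the minimum level in these libraries, 5 higher and 6 lower with SAR. All 9 pluripotency markers were above it too, so this does not tell DE from undifferentiated cells. All of the values are from bulk RNA, in which fewer cells with a transcript and less of it per cell cannot be told apart.

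The promoters of several of these genes carry the element through which SRF binds. RefSeq promoter windows on GRCh38.p14, running from 250 bases before to 50 bases after the start, were on hand for 40 of the 44 members. Those of ACTB, TAGLN, MYL9 and VIL1 were not in the table. It held 35116 windows for 27305 genes, so a gene can have more than 1 start. The start named here is that of the window and can lie inside the gene. The CArG box is 10 bases long and reads as a CArG box on either strand, so 1 scan covered both. A box was found in 10 of the 40 members (25%), and in 438 of the 27305 genes of the table (1.6%) or 1.5% of the tested genes in it. The members were chosen in part because many are known SRF targets, so this share describes the choice as much as the genes. The windows printed here are 60 bases long, are written 5′ to 3′ on the strand of the gene, and show each box in capitals. The first 5 belong to the members with a box that were lower with SAR, and the last 3 to members that were not called.

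ACTG1 (chr17:81512859-81512918, minus strand, box starting 94 bases before the start): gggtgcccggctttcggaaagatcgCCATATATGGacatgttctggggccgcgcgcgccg
CNN2 (chr19:1026494-1026553, plus strand, 89 bases before the start): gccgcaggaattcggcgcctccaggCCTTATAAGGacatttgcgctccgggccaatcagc
TPM4 (chr19:16067340-16067399, plus strand, 173 bases before the start): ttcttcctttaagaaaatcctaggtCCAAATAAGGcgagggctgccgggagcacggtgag
ACTN1 (chr14:68977703-68977762, minus strand, 171 bases before the start): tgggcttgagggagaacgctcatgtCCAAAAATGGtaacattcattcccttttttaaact
ROCK2 (chr2:11345476-11345535, minus strand, 73 bases before the start): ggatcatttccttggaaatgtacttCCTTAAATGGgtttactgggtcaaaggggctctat
SRF (chr6:43171214-43171273, plus strand, boxes 30 and 10 bases before the start): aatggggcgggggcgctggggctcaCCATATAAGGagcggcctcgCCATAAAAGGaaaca
ACTA1 (chr1:229434157-229434216, minus strand, 97 bases before the start): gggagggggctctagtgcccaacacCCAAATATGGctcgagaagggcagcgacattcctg
FLNA (chrX:154374694-154374753, minus strand, 94 bases before the start): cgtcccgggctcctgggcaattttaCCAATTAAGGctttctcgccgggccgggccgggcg

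The remaining members with a box were ACTG2 and MYLK. ACTG2 had boxes 110 and 73 bases before the start. MYLK had one 94 bases before a start inside the gene, which spans chr3:123610049-123884331 on the minus strand. The MYLK box lies within chr3:123620608-123620667. Among all tested genes 9.55% were lower and 23.7% higher with SAR at an adjusted p-value under 0.05. Of the 9 tested members with a box, 5 were lower with SAR, 0 were higher and 4 were not called, with a median log2 fold change of -0.21. Of the 29 tested members without one, 10 were lower, 2 were higher and 17 were not called, with a median of -0.13. A match describes the letters in this window and is not evidence that SRF binds there in these cells. A window without a match does not show that the gene lacks a box elsewhere.

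Most of the actomyosin genes that changed with SAR were downregulated, by moderate amounts. Of the 44 members, 42 passed the minimum level, 16 of them were lower with SAR and 3 were higher. The lower genes were ACTG1, ACTN1, MYH9, TPM4, CALD1, CNN2, CNN3, TAGLN, VCL, MSN, RDX, ROCK1, ROCK2, LIMK1, DIAPH1 and DIAPH3, and the higher genes were VIL1, MYH14 and LIMK2. Over all tested genes these shares were 9.55% lower and 23.7% higher. The members' median log2 fold change was -0.16, where that of all tested genes was 0.12. At the stricter limit of a log2 fold change beyond 1 in size, 0 members were lower and 0 higher (1.58% and 3.41% of all tested genes), and no member had a value of that size at any p-value, so that their changes were all under 2-fold.

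Scaling moved these counts. After median-ratio rescaling 24 members were lower and 2 higher, where 15.5% and 13.8% of all tested genes were, and the members' median was -0.28. All 16 lower genes were among the 24, and ACTB, MYH10, MYL12A, MYL12B, TPM3, TAGLN2, FLNA and FLNC joined them, whereas LIMK2 was no longer called. Across all genes the same rescaling turned 3885 higher and 1563 lower genes into 2259 and 2538. Without regard to any test, the 3 SAR libraries lay below the 3 control libraries in 21 members and above them in 6, beside 15.2% and 35.5% of all tested genes.

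**Figure D1:**
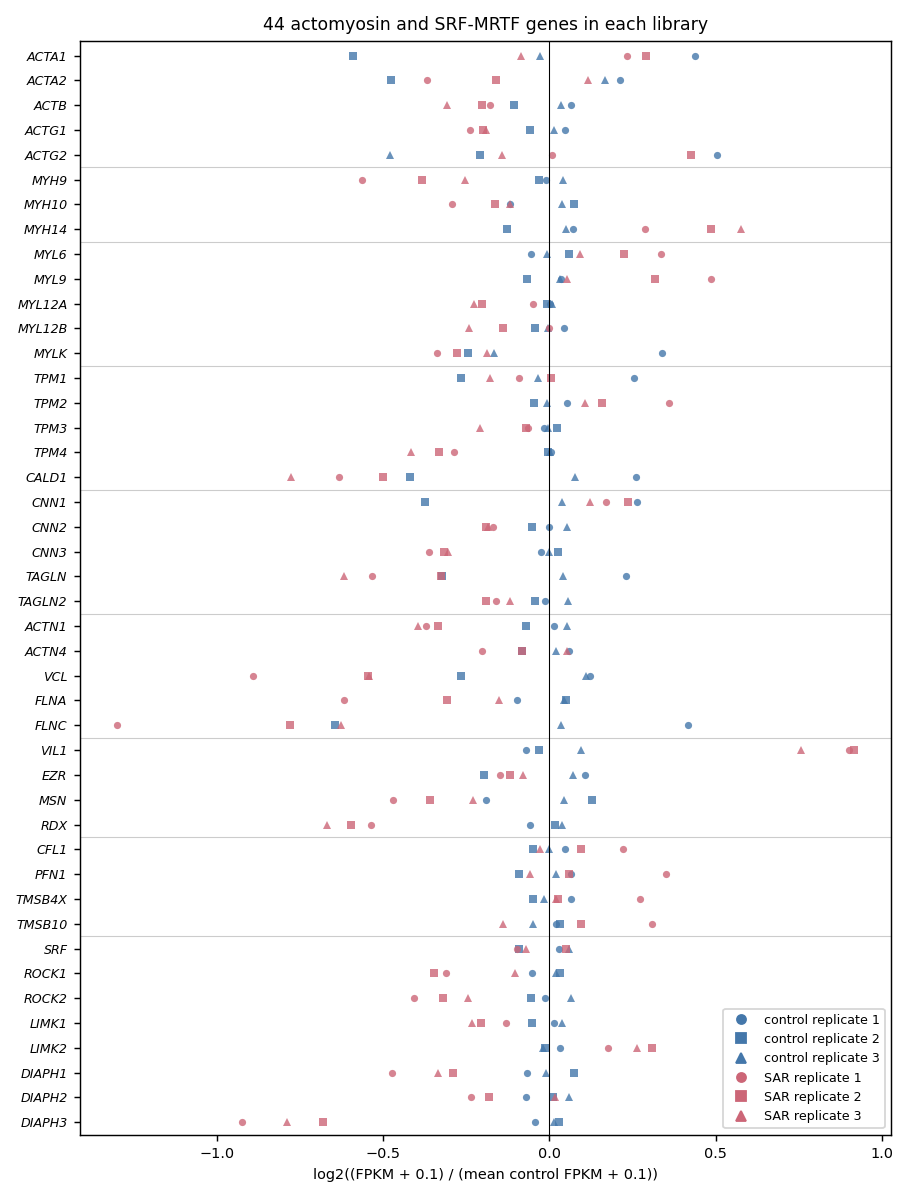
Each of the 44 genes in each of the 6 libraries, as the log2 ratio of FPKM + 0.1 to the mean of the control libraries (x axis), with circles, squares and triangles for replicates 1, 2 and 3 and blue for control and red for SAR. In RDX, DIAPH3, TPM4 and CNN3 the red points stand apart on the left, in VIL1 on the right, and in FLNC, CALD1, TAGLN and ACTA1 the blue square of control replicate 2 lies well to the left of the other control points.

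**Figure D2:**
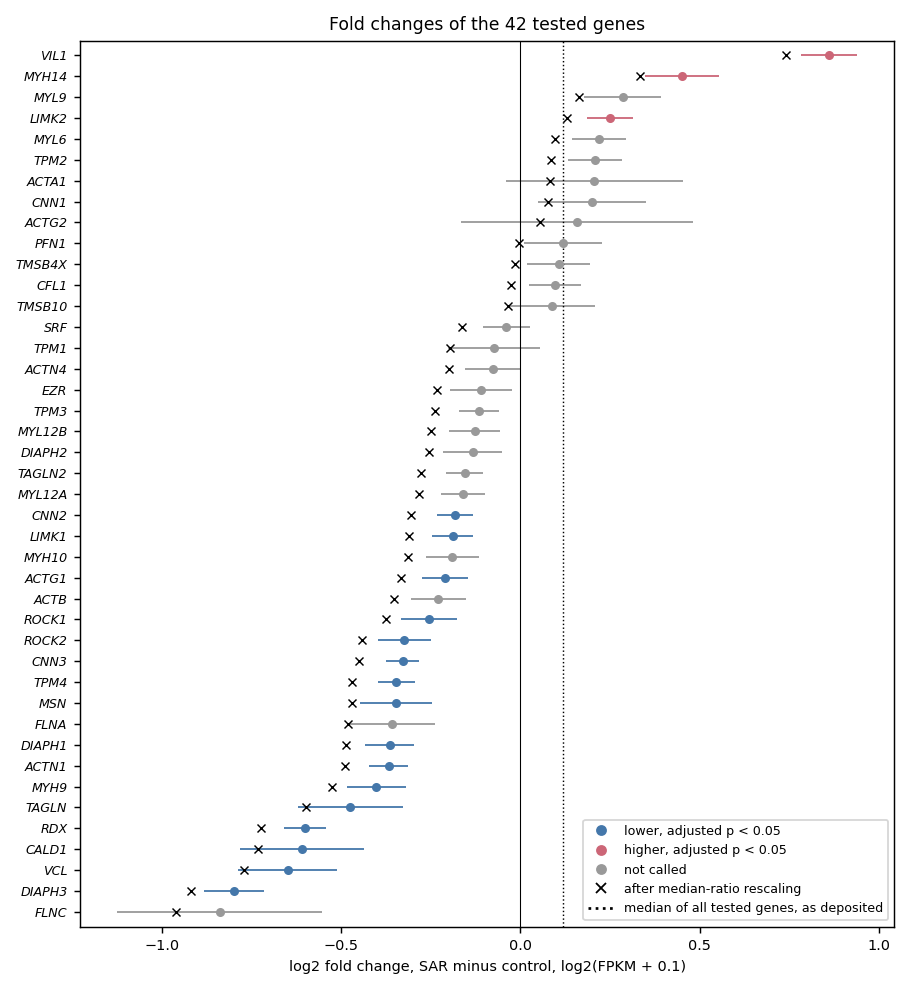
Log2 fold change of the 42 tested genes on log2(FPKM + 0.1), SAR minus control, with its standard error as the bar (3 libraries a group). Blue points were lower and red points higher at an adjusted p-value under 0.05 (limma), grey points were not called, crosses give the value after median-ratio rescaling, and the dotted line is the median of all tested genes at 0.12; VIL1 at 0.86 and FLNC at -0.84 mark the ends.

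The plot of all members by library shows that the changes lie within a narrow range, and the plot of fold changes shows called and uncalled genes interleaved, with VIL1 as the highest value, which was called, and FLNC as the most negative, which was not. The share of the summed FPKM that fell to the 44 genes was 3.69%, 3.67% and 3.69% in the control libraries and 3.65%, 3.44% and 3.30% in the SAR libraries. All 3 SAR libraries were below all 3 control libraries, with SAR replicate 1 nearly level with control.

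Among the actins, the cytoplasmic pair made up nearly all of the message. ACTB and ACTG1 encode the beta and gamma actins of non-muscle cells, and ACTA1, ACTA2 and ACTG2 the skeletal, vascular and visceral smooth muscle forms. ACTG1 stood at 1760.4, 1637 and 1721 FPKM in control and at 1444, 1484 and 1493 FPKM with SAR. The highest SAR library was below the lowest control library, and ACTG1 was lower by a log2 fold change of -0.21 (adjusted p = 0.044). ACTB stood at 1553.5, 1379 and 1519.9 FPKM in control and at 1311, 1289 and 1198 FPKM with SAR. The groups did not overlap here either, but the value of -0.23 for ACTB missed the threshold (adjusted p = 0.0571) and passed it after rescaling (-0.35, adjusted p = 0.0122). The call of ACTG1 was lost in each of the 6 settings that left out 1 library (highest adjusted p = 0.358 over all alternatives).

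ACTA1 was far lower, at 35.9, 17.5 and 25.9 FPKM in control and 31.2, 32.4 and 24.9 FPKM with SAR. The control libraries alone covered a 2.05-fold range and spanned those of SAR, and the log2 fold change of 0.21 had a 95% interval from -0.38 to 0.79 (adjusted p = 0.545). Without control replicate 2 it was -0.06. ACTG2 rested on 27 to 70 reads a library, with 0.375 to 0.838 FPKM in control and 0.499 to 0.79 FPKM with SAR, and ACTA2 on 7 to 17 reads, which left it under the minimum level and untested. The 95% interval of ACTG2 ran from -0.61 to 0.92. Summed over 6 actin genes, ACTC1 of cardiac muscle included, the actin FPKM went from 3229 ± 166 (SD, n = 3) in control to 2778 ± 49.4 (SD, n = 3) with SAR (exact permutation test, two-sided p = 0.1, the smallest that 3 libraries against 3 can give). Its make-up stayed close: ACTB held 46.0% ± 0.555 of it in control and 45.6% ± 1.46 with SAR (SD, n = 3 each), and the groups overlapped.

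The motor itself was downregulated in its main form. Non-muscle myosin II is assembled from heavy chains encoded by MYH9 (myosin IIA), MYH10 (IIB) and MYH14 (IIC). MYH9 stood at 88.7, 87.2 and 91.8 FPKM in control and at 60.3, 68.4 and 74.8 FPKM with SAR. The groups were well apart, with SAR replicate 1 the lowest of all, and the log2 fold change was -0.40 ± 0.08 (SE, adjusted p = 0.012). MYH14, at a far lower level, went the other way, from 2.78, 2.41 and 2.74 FPKM to 3.25, 3.74 and 3.99 FPKM. All 3 SAR libraries were above control, and the log2 fold change was 0.45 ± 0.10 (SE, adjusted p = 0.0168) as deposited and 0.33 (adjusted p = 0.0423) after rescaling. MYH10 lay between them, with 43.2 to 49.3 FPKM in control and 38.2 to 43.2 FPKM with SAR, groups that just overlapped (-0.19, adjusted p = 0.0878). The call of MYH9 was lost without control replicate 3 (adjusted p = 0.0507), and that of MYH14 without control replicate 2 (0.0543) or SAR replicate 2 (0.0586).

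The share of a gene within its family does not depend on the scaling between libraries, so it was compared for 13 families. Of 36 shares held by members, 9 were higher in all 3 SAR libraries than in all 3 control libraries and 9 were lower in all 3. The test used for the shares, a two-sided exact permutation test, cannot pass the threshold with 3 libraries against 3, since its smallest p is 0.1, which became 0.186 after adjustment over the 52 sums and shares tested. Shares within a family add up to the whole, so that 1 gene that moves also moves the others. In a pair such as LIMK1 and LIMK2, both shares count for 1 shift. Such shares were not computed over all genes, so these counts have no background beside them. Within the myosin II heavy chains, MYH9 held 65.9%, 62.8% and 64.3% of the FPKM in control and between 59.3% and 61.3% with SAR. MYH14 held 2.06%, 1.73% and 1.92% in control and 3.19%, 3.28% and 3.27% with SAR. Both shifts kept the groups apart, while the sum of the family went from 139 ± 4.03 to 113 ± 10.2 FPKM (SD, n = 3 each).

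**Figure D3:**
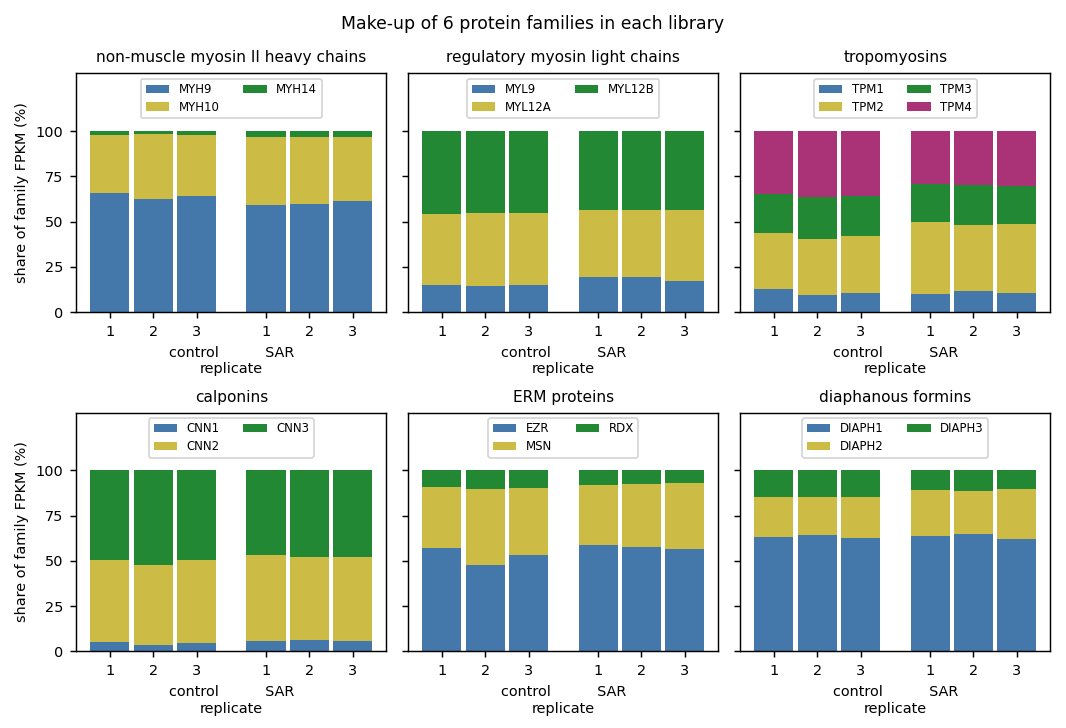
Make-up of 6 protein families in each of the 6 libraries, as each gene's share (%, y axis, from 0) of the family's summed FPKM, with control replicates 1 to 3 on the left of each panel and SAR replicates 1 to 3 on the right. With SAR, TPM2 takes more and TPM4 less of the tropomyosins (38.0% and 29.7%, from 31.2% and 35.8%), MYL9 more of the regulatory light chains (18.8% from 14.7%), MYH14 more of the heavy chains (3.25% from 1.91%), and RDX and DIAPH3 less of the ERM proteins and formins.

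The light chains were divided, with MYL6 and MYL9 above control and MYL12A below it in all SAR libraries. MYL6 encodes the essential light chain of non-muscle myosin, MYL9, MYL12A and MYL12B the regulatory light chains that are phosphorylated to switch the motor on, and MYLK the kinase that does so with calmodulin. Of the 4 tested, 0 were called in either direction as deposited (limma), 3 had an unadjusted p-value under 0.05 (MYL6, MYL9 and MYL12A), and voom on the recovered reads called MYL6 and MYL9 higher. MYL6 stood at 181, 196 and 187 FPKM in control and 238, 220.2 and 201 FPKM with SAR. All SAR libraries were above control, but the value of 0.22 missed the threshold (adjusted p = 0.0606) and was 0.10 after rescaling. MYL9 likewise stood at 57.0, 53.1 and 56.9 FPKM in control and 77.9, 69.4 and 57.7 FPKM with SAR (0.29, adjusted p = 0.0801), with SAR replicate 3 only just above control. MYL12A was at 151 to 153 FPKM in control and 129.7 to 147 FPKM with SAR (-0.16, adjusted p = 0.0833), and MYL12B at 167 to 177 and 145 to 172 FPKM (-0.13, adjusted p = 0.207). Both were called lower after rescaling (-0.28 and -0.25). The reading that did not depend on scaling was the make-up of the regulatory light chains, which the plot of family shares shows: MYL9 held 14.8%, 14.3% and 14.9% in control and 19.7%, 19.4% and 17.4% with SAR. MYLK was at 0.307 to 0.511 FPKM in control and 0.281 to 0.324 FPKM with SAR, from 104 to 248 reads a library, and was under the minimum level.

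Tropomyosins lie along the actin filament and set which motors and severing proteins reach it. TPM4 gave one of the tightest differences of all members, at 79.1, 78.6 and 78.9 FPKM in control and 64.6, 62.6 and 59.1 FPKM with SAR. The control libraries differed from each other by a factor of 1.01 and the SAR libraries by 1.09, and the log2 fold change was -0.35 ± 0.05 (SE, adjusted p = 0.00414). TPM2 went in the opposite direction, from 71.2, 66.5 and 68.2 FPKM to 88.1, 76.5 and 74.0 FPKM, without overlap and without a call (0.21, adjusted p = 0.072). Within the family, TPM4 held 35.8% ± 0.91 of the FPKM in control and 29.7% ± 0.514 with SAR, and TPM2 31.2% ± 0.171 and 38.0% ± 1.63 (SD, n = 3 each), so that the most abundant tropomyosin by this measure was TPM4 in control and TPM2 with SAR. Such a rank depends on the gene lengths used: by recovered reads TPM4 (13137 to 23741) was above TPM2 (4100 to 5169) in every library. The sum of the 4 tropomyosins overlapped between the groups (220.2 ± 6.398 and 209 ± 12.6 FPKM). TPM3 was at 48.0 to 49.3 FPKM in control and 42.1 to 46.5 FPKM with SAR (-0.12, adjusted p = 0.154), and TPM1 at 20.02 to 28.7 and 21.3 to 24.2 FPKM (-0.07, adjusted p = 0.687, 95% interval -0.38 to 0.23). CALD1, the caldesmon that binds actin with tropomyosin and blocks myosin, stood at 48.3, 30.0 and 42.4 FPKM in control and at 25.9, 28.4 and 23.4 FPKM with SAR. The groups did not overlap, but control replicate 2 was near the highest SAR library. CALD1 was lower by -0.61 ± 0.17 (SE, adjusted p = 0.0343), and lost the call without control replicate 1 or 3 or without any 1 SAR library (adjusted p up to 0.104).

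Of the calponins and transgelins, which bind actin filaments and share a calponin homology domain, 3 of 5 were lower and 0 higher. CNN3, the acidic calponin found outside smooth muscle, stood at 145, 149.7 and 147 FPKM in control and at 114, 118 and 119 FPKM with SAR. These groups were wide apart for their spread, and CNN3 was lower by -0.33 ± 0.05 (SE, adjusted p = 0.00359). CNN2 was at 126 to 136 FPKM in control and 115 to 116 FPKM with SAR (-0.18, adjusted p = 0.031). CNN1, the smooth muscle calponin, was at 15.7, 10.1 and 13.4 FPKM in control and 14.7, 15.4 and 14.3 FPKM with SAR, and overlapped (0.20, adjusted p = 0.337). TAGLN, or SM22, a smooth muscle marker and a common readout of SRF activity, stood at 66.5, 45.3 and 58.4 FPKM in control and 39.2, 45.3 and 37.0 FPKM with SAR. The highest SAR library and control replicate 2 were all but equal, and the call of TAGLN (-0.47 ± 0.15 SE, adjusted p = 0.0451) was lost without control replicate 1 or 3 or any 1 SAR library. TAGLN2, the form of non-muscle cells, was at 116 to 124.5 FPKM in control and 105 to 110.4 FPKM with SAR, without overlap (-0.16, adjusted p = 0.0556). The call of CNN2 was lost in 7 of 15 alternatives, whereas that of CNN3 held in all 15.

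Among the crosslinkers all 5 values were negative and 2 were called. Vinculin, encoded by VCL, couples talin and alpha-catenin to actin at adhesions. It stood at 81.4, 62.2 and 80.8 FPKM in control and at 40.3, 51.2 and 51.3 FPKM with SAR. The groups were apart, and VCL was lower by -0.65 ± 0.14 (SE, adjusted p = 0.0135), a ratio of means of 0.637. Without control replicate 3 that call was lost (limma, adjusted p = 0.0517). ACTN1 and ACTN4 encode the alpha-actinins of non-muscle cells, which crosslink filaments as antiparallel dimers. ACTN1 stood at 18.7, 17.7 and 19.2 FPKM in control and at 14.3, 14.7 and 14.1 FPKM with SAR, and was lower by -0.37 ± 0.05 (SE, adjusted p = 0.00418). ACTN4 overlapped, with 34.2 to 37.6 FPKM in control and 31.4 to 37.5 FPKM with SAR (-0.08, adjusted p = 0.471, 95% interval -0.26 to 0.11). Its share of the pair went from 66.1% ± 0.632 to 70.5% ± 2.04 (SD, n = 3 each) without overlap.

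The filamins join filaments into a network at wide angles. FLNA was at 124.6, 138 and 137.6 FPKM in control and at 86.9, 107.8 and 120.2 FPKM with SAR. There was no overlap, but SAR replicate 3 came near control replicate 1, and the value of -0.36 was not called (adjusted p = 0.0566). FLNC, the muscle filamin, gave the most negative value of all members and the widest control spread of any member above 1 FPKM, with 33.7, 16.1 and 25.9 FPKM in control and 10.2, 14.7 and 16.3 FPKM with SAR. Control replicate 2 lay below SAR replicate 3, and FLNC was not called (-0.84 ± 0.29 SE, adjusted p = 0.0606). Without control replicate 2 it was called at -1.13 (adjusted p = 0.0204), the only setting in which any member was called beyond a log2 fold change of 1 in size. After rescaling it was called at -0.96 (adjusted p = 0.0389).

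The ERM proteins ezrin, radixin and moesin tie actin filaments to the plasma membrane, and villin bundles and severs actin in the microvilli of gut and kidney epithelia. RDX, on chr11:109864295-110296722, stood at 17.4, 18.3 and 18.6 FPKM in control and at 12.4, 11.9 and 11.3 FPKM with SAR. The gap was several times the spread of either group, and RDX was lower by -0.60 ± 0.06 (SE, adjusted p = 0.00115). MSN was at 62.5, 78.0 and 73.5 FPKM in control and 51.5, 55.6 and 60.8 FPKM with SAR, and was lower by -0.35 ± 0.10 (SE, adjusted p = 0.0359), a call lost in 6 of 15 alternatives. EZR, the most abundant of the family by FPKM, overlapped, with 87.4 to 107.7 FPKM in control and 90.3 to 94.6 FPKM with SAR (-0.11, adjusted p = 0.352, 95% interval -0.31 to 0.09). Radixin's share of the ERM message was 9.55% ± 0.374 in control and 7.44% ± 0.631 with SAR (SD, n = 3 each).

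VIL1, which encodes villin and lies on chr2:218419092-218453295, was the most upregulated member. It stood at 2.95, 3.03 and 3.32 FPKM in control and at 5.88, 5.94 and 5.31 FPKM with SAR. Every SAR library was well above every control library, and VIL1 was higher by 0.86 ± 0.08 (SE, adjusted p = 0.000926), a ratio of means of 1.84, from 432 to 694 reads a library. By GENCODE 29, 44.003% of its exon bases lie opposite exons of USP37, and whether the authors counted by strand is not given in the sources used here. USP37 itself was at 1.20 ± 0.0722 FPKM in control and 0.991 ± 0.229 FPKM with SAR (-0.27, adjusted p = 0.278). Other genes of the brush border, the field of microvilli in which villin is best known, were sparse. Of 10 on the list, VIL1 and EZR included, 4 were under the minimum level (CDHR2, CDHR5, MYO1A and MYO7B), and of the 6 tested 1 was higher, VIL1, and 1 was lower, the bundling protein gene PLS1. The summed FPKM of the list was 103 to 126 in control and 108 to 113 with SAR.

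The genes of actin turnover include some of the most abundant of the 44, and of the 4 tested 0 were called in either direction by limma or by voom on the recovered reads, and 0 had an unadjusted p-value under 0.05. CFL1 encodes cofilin, which severs old filaments, PFN1 profilin, which loads monomers onto growing ends, and TMSB4X and TMSB10 the thymosins that hold monomers in reserve. TMSB10 was at 3441.6, 3470.1 and 3281 FPKM in control and 4209, 3631 and 3081 FPKM with SAR. SAR replicates 1 and 2 were above control and SAR replicate 3 below, and the value of 0.09 was not called (adjusted p = 0.599). PFN1 went from 373 ± 20.6 to 407 ± 60.9 FPKM, TMSB4X from 1072 ± 44.3 to 1158 ± 119 FPKM and CFL1 from 108 ± 3.61 to 116 ± 9.94 FPKM (SD, n = 3 each), at 0.12, 0.11 and 0.10. None was called, with 95% intervals of -0.14 to 0.38 for PFN1, -0.10 to 0.32 for TMSB4X and -0.08 to 0.27 for CFL1, and all 4 signs turned after rescaling (-0.0036, -0.02 and -0.03, and -0.03 for TMSB10). Reads of 3 members can be shared with near-identical processed copies elsewhere in the genome. The pseudogenes of TMSB4X summed to 74.7% of its FPKM in control and 74.2% with SAR, those of TPM3 to 7.21% and 7.62%, and those of PFN1 to 4.46% and 4.63%, while those of ACTB, ACTG1, CFL1, MYL6 and MYL12A with MYL12B stayed under 1%. These are shares of FPKM, which divides by length, and not of reads. Of the 801 FPKM of TMSB4X pseudogenes in control, 795 came from TMSB4XP8. That copy held 1806 to 2451 reads a library, where TMSB4X held 31483 to 43077.

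Formins and kinases that build and stiffen filaments were mostly lower. Of 8 genes for SRF, the ROCK kinases, the LIM kinases and the diaphanous formins, 5 were lower and 1 higher. DIAPH3, on chr13:59665583-60163987, stood at 4.74, 4.99 and 4.94 FPKM in control and at 2.53, 3.01 and 2.78 FPKM with SAR. The groups were far apart for their spread, and DIAPH3 was lower by -0.80 ± 0.08 (SE, adjusted p = 0.00129), a ratio of means of 0.568. DIAPH1, the most abundant of the 3 here, stood at 20.2, 22.3 and 21.0 FPKM in control and at 15.2, 17.3 and 16.8 FPKM with SAR, and was lower by -0.36 ± 0.07 (SE, adjusted p = 0.0091). DIAPH2 overlapped, at 6.95 to 7.59 and 6.18 to 7.38 FPKM (-0.13, adjusted p = 0.25). The formins' summed FPKM went from 33.3 ± 1.36 to 25.9 ± 1.68, and of that sum DIAPH3 held 14.7% ± 0.232 in control and 10.7% ± 0.491 with SAR, while DIAPH1 held 63.5% in both (SD 0.863 and 1.22, n = 3 each).

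Both ROCK kinases were lower by similar amounts. ROCK1 was at 9.81, 10.4 and 10.3 FPKM in control and 8.18, 7.98 and 9.46 FPKM with SAR (-0.25, adjusted p = 0.0448), and ROCK2 at 3.98, 3.86 and 4.20 FPKM and 3.00, 3.19 and 3.38 FPKM (-0.32, adjusted p = 0.0182). In neither did the groups overlap, and their proportion stayed close, with ROCK1 at 71.7% ± 1.06 and 72.8% ± 1.19 of the pair (SD, n = 3 each). The call of ROCK1 was lost in 8 of 15 alternatives and that of ROCK2 in 3.

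The LIM kinases, which phosphorylate and switch off cofilin, moved apart. LIMK1 was at 13.2, 12.6 and 13.4 FPKM in control and 11.9, 11.3 and 11.1 FPKM with SAR (-0.19, adjusted p = 0.0408), and LIMK2 at 4.57, 4.43 and 4.41 FPKM and 5.06, 5.57 and 5.38 FPKM (0.25, adjusted p = 0.0255). Neither overlapped. LIMK2 held 25.7%, 26.0% and 24.7% of the pair in control and 29.8%, 32.9% and 32.6% with SAR. Each of these calls was lost in several alternatives, 8 of 15 for LIMK1 and 7 for LIMK2, rescaling among those of LIMK2 (0.13, adjusted p = 0.167).

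SRF itself did not change detectably. It stood at 23.8, 21.9 and 24.3 FPKM in control and at 21.8, 24.2 and 22.2 FPKM with SAR. The groups overlapped across most of their range, with a log2 fold change of -0.04 and a 95% interval from -0.20 to 0.12 (adjusted p = 0.673). Among 6 genes for its cofactors, MRTFA was higher, from 3.03 ± 0.103 to 4.22 ± 0.257 FPKM (0.46, adjusted p = 0.00518), the ternary complex factor gene ELK3 was lower (-0.37, adjusted p = 0.00302), and MYOCD, the cofactor of heart and smooth muscle, was lower from a level near the minimum, 0.872 ± 0.0716 to 0.317 ± 0.0765 FPKM (SD, n = 3 each; -1.23, adjusted p = 0.01). MRTFB, ELK1 and ELK4 were not called.

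Several muscle-type members varied widely between the control libraries. Of the 35 members with a mean of at least 10 FPKM, 6 differed by 1.4-fold or more between control libraries: ACTA1, TPM1, CNN1, TAGLN, FLNC and CALD1. Among all 4169 genes at that level 3.72% did. All 6 were highest in control replicate 1 and lowest in control replicate 2, as were 56.8% of all genes of that level and range. Over all tested members, 27 of 42 (64.3%) were lowest in control replicate 2, beside 39.8% of all tested genes. Among the SAR libraries only FLNC and the scarce ACTG2 varied by 1.4-fold. CCN1 and CCN2, matricellular genes that SRF and YAP are known to drive and that were picked after their values had been seen, had the same order, with CCN2 at 274, 149 and 224 FPKM in control and 119, 148 and 129.8 FPKM with SAR (-0.67, adjusted p = 0.0509). Control replicate 1 also had the most genes above 0, at 33169, where the other libraries had 29506 to 30109. What sets control replicates 1 and 2 apart in these genes was not tested.

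**Figure D4:**
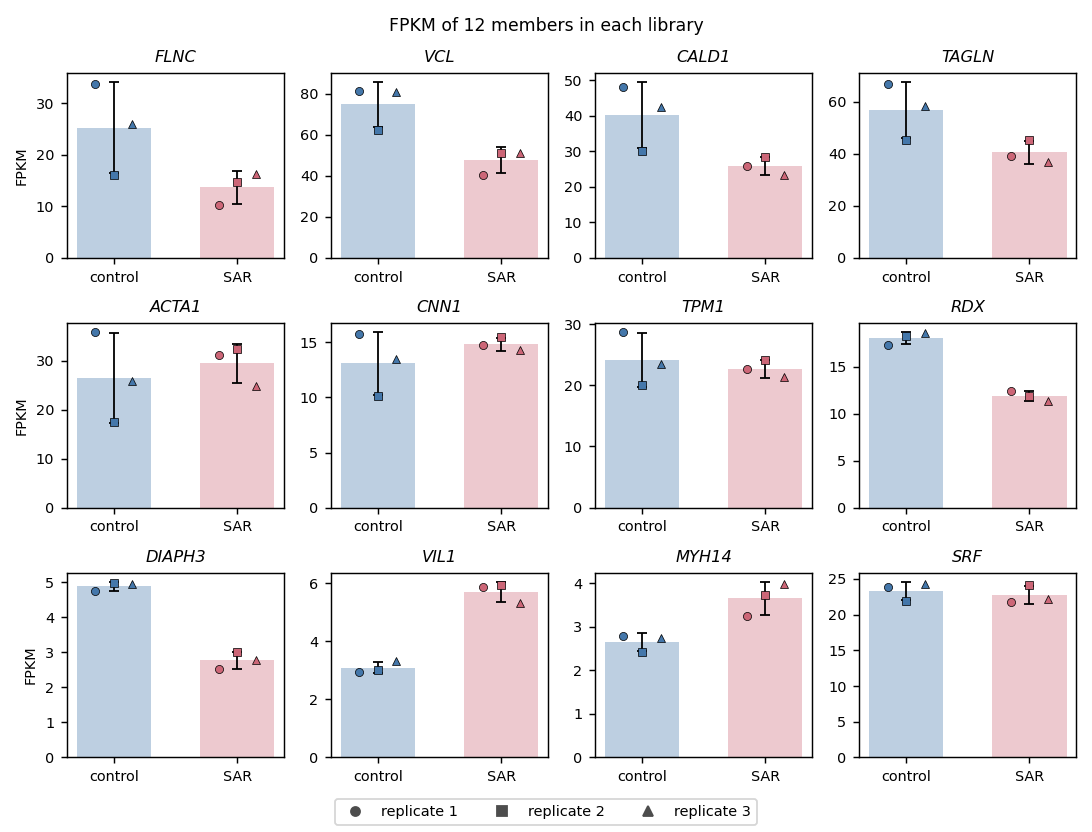
FPKM (y axes, from 0) of 12 members in each library, with bars for the mean of 3 libraries, error bars for the SD, and circles, squares and triangles for replicates 1, 2 and 3. In FLNC, CALD1, TAGLN, ACTA1, CNN1 and TPM1 the control square lies far below the control circle, whereas RDX and DIAPH3 below control and VIL1 and MYH14 above it show no overlap and little spread.

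The plot of 12 members sets these genes beside those with tight libraries. Of the called members, 7 had the same call as deposited and under all 15 alternatives: ACTN1, TPM4, CNN3, RDX, DIAPH1 and DIAPH3, all lower, and VIL1, higher. In no alternative was any member called in the opposite direction. The count of lower members, 16 as deposited, was 6 without control replicate 3, 8 without SAR replicate 2 and 10 without SAR replicate 1, and the 3 higher members became 1 without control replicate 2 or SAR replicate 2 and 6 without SAR replicate 3.

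Other parts of the actin machinery were read from lists of related genes. Of the bundling proteins 4 of 6 were lower and 0 higher, among them FSCN1, the fascin of filopodia, from 260 to 199 FPKM (-0.39, adjusted p = 0.00302), and LCP1, LASP1 and PLS1. Of 16 capping, severing and monomer-binding genes, 5 were lower and 2 higher. TMOD1, which caps the pointed end of filaments, showed the only change beyond a log2 fold change of 1 among them, from 9.21 ± 1.93 to 2.62 ± 0.332 FPKM (SD, n = 3 each; -1.77, adjusted p = 0.000926). CAP1 and CAP2, which recycle cofilin-bound monomers, were lower (-0.35 and -0.42), and the severing and capping genes GSN (gelsolin) and CAPG were higher (0.62 and 0.40). The Arp2/3 complex, which makes branched filaments, had 1 of 8 tested genes lower, ACTR2 (-0.38, adjusted p = 0.00434), and 0 higher, with ARPC1B under the minimum level. Of the 13 WAVE and WASP genes that switch it on, BRK1 was higher (0.31) and NCKAP1 lower (-0.20), and the other 11 were not called.

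Among 9 tested phosphatase genes that act on myosin or cofilin, PPP1R12C, SSH3 and PPP1CB were higher as deposited (33.3%, beside 23.7% of all tested genes). After rescaling 0 were higher and PPP1R12A and SSH2 were lower. Of 14 other tested SRF-MRTF target genes, TES, which encodes the adhesion protein testin, was lower, from 17.5 ± 0.414 to 8.97 ± 0.111 FPKM (SD, n = 3 each; -0.95, adjusted p = 0.000147), and 3 were higher, JUNB, PDLIM7 and TGFB1I1. These shares were 7.14% lower and 21.4% higher, beside 9.55% and 23.7% of all tested genes. After rescaling 5 of these 14 were lower and 0 higher, beside 15.5% and 13.8% of all tested genes. Of 9 tested genes that SRF drives through the ternary complex factors, EGR3 and FOSB were higher as deposited (22.2%, beside 23.7% of all tested genes) and ATF3 and MCL1 lower, and after rescaling 0 were higher and 2 lower.

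Markers of other cell types were read beside these genes. Of 10 smooth muscle markers, 4 of which are members, MYH11, SYNPO2 and ACTA2 were under the minimum level. DES and LMOD1 were higher and TAGLN and MYOCD lower. Of these, 3 lay near the minimum level: DES with 32 to 73 reads a library, LMOD1 with 61 to 105 and MYOCD with 41 to 185. The summed FPKM of the list was 59.8 to 88.1 in control and 57.3 to 66.5 with SAR. Of 10 cardiac markers, 6 were under the minimum level, MYH6, MYH7, TNNT2 and NKX2-5 included, TNNC1 was higher (21.5 to 36.4 FPKM) and MYL7 lower (21.3 to 14.7 FPKM), and the list summed to 57.7 to 61.9 and 59.0 to 65.8 FPKM. Both sums overlapped between the groups.

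The markers of DE and of neighbouring fates moved in both directions. Of the 12 DE markers, FOXA1 (2.54), FOXA2 (1.44), SOX17 (1.06) and HHEX (1.03) were higher beyond a log2 fold change of 1, and KIT was also higher. FOXA2 went from 23.6 to 64.0 FPKM and SOX17 from 31.6 to 67.5 FPKM. GSC (-1.48), EOMES (-1.36), CER1 (-1.28) and GATA4 (-1.05) were lower beyond 1 in size, and CXCR4 and GATA6 were also lower. The summed FPKM of the list was 3975 to 5081 in control and 2101 to 2154 with SAR, and without CER1, which makes up most of it, 435 to 478 and 410 to 504, so that the groups then overlapped. Of the mesoderm markers, 7 of 12 were under the minimum level, TBXT (1.69) and TBX6 (0.82) were higher and MIXL1 (-1.35) and KDR (-0.22) lower. Their sum was 62.9 to 65.9 FPKM in control and 39.0 to 51.2 FPKM with SAR, and without MIXL1 it was 19.5 to 20.4 and 25.8 to 29.4 FPKM, the opposite order. The 9 pluripotency markers summed to 946 to 1060.3 and 1152 to 1165 FPKM, with SOX2, LIN28A and TDGF1 higher and NANOG lower (-1.30). After rescaling SOX2 was still higher (0.76) and NANOG still lower (-1.42), while LIN28A and TDGF1 were not called (0.08 and 0.07). Neural ectoderm markers, 5 of 7 under the minimum level, overlapped in sum. The part of these cell types in the changes of the actomyosin genes was not tested.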

How the data were processed

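RNA-seq libraries of 3 control and 3 SAR samples were grouped by the sample labels. The authors selected mRNA with oligo(dT) beads, sequenced paired-end libraries and deposited gene levels as FPKM, with a column for each library and a row for each of 40396 Ensembl gene IDs. The submitters' processing notes name HISAT2, featureCounts of Subread, DESeq2 and GRCh38.p13. The annotation release and the strand setting are not given in the sources used here. The deposited FPKM are scaled by each library's total alone.

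No count model was used for the main test, since the deposited values are FPKM. Genes that averaged 0.5 FPKM or more (16371) were tested two-sided on a scale of log2(FPKM + 0.1) in limma 3.58.1 under R 4.3.3, where lmFit was followed by eBayes with its trend option, with Benjamini-Hochberg adjustment over all of them and without a replicate block. Family shares were compared by exact permutation tests. Summaries used numpy 2.4.6, scipy 1.17.1 and pandas 2.3.3 under Python 3.11.15, and plots matplotlib 3.10.9.

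Whole-number reads were recovered from the FPKM for 99.995% of genes (within 0.02 reads), with gene lengths that equalled the exon unions of GENCODE 29 in 60.0% of genes. Positions and exon overlaps are those of GENCODE 29 on GRCh38, and promoter windows those of RefSeq on GRCh38.p14. The genes, the lists of related genes and the markers were chosen with earlier results of these data known. The result of 1 list is not reported here. All 44 members are named, and of the other lists up to 4 of the genes called, by smallest adjusted p-value, with those called beyond a log2 fold change of 1 in size. Others named in the marker lists and among the phosphatases were chosen after their values had been seen.

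The numbers of the replicates were not used as pairs. Alternatives were median-ratio rescaling, quantile normalization, pseudocounts of 1 and 0.01, all genes or those averaging 1 FPKM in place of the filter, eBayes without the trend, a replicate block, each library left out in turn, and, added after seeing the data, voom on the recovered reads.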

Additional observations from a re-analysis of the deposited data

How the results depend on the processing

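As deposited, 16 members were lower and 3 higher with SAR. The lower count was 9 with no filter and 10 with no intensity trend, and lay between 6 and 13 when 1 library was left out (6 without control replicate 3, 8 without SAR replicate 2, 10 without SAR replicate 1). The higher count was 6 with voom on the recovered reads, which was chosen after seeing the data, and lay between 1 and 6 when 1 library was left out. With a log2 fold change under -1, 0 members were lower as deposited and between 0 and 1 when 1 library was left out, FLNC without control replicate 2. The higher count beyond a log2 fold change of 1 was 0 in all 15 alternatives. With 1 library left out, fewer libraries enter the test. With no filter, 40396 genes share the adjustment. For the other settings the cause was not tested.

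Libraries with the same number deviated from their group means with correlations of 0.07, 0.0029 and 0.02, all under 0.1. With 3 libraries a group, such values cannot decide whether the numbers pair the libraries. With the number as a replicate block, 13 members were lower, 11 of them among the 16, and 2 were higher. In the remaining alternatives (median-ratio rescaling, quantile normalization, pseudocounts of 1 and 0.01, and genes averaging 1 FPKM) between 16 and 24 members were lower and 2 or 3 higher, and voom gave 19 lower. Over all genes, 3885 were higher and 1563 lower as deposited. Across the alternatives the lowest counts, 2129 higher and 833 lower, came without control replicate 3, and the highest were 4502 higher with voom and 2538 lower after median-ratio rescaling. ACTA2 (7 to 17 reads a library) and MYLK were under the minimum level, and ACTG2 rested on 27 to 70 reads.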
